A study of Homo sapiens with 6 samples.

Results

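Levels of H3K27ac were examined at promoters that serve long non-coding RNAs (lncRNAs) but no protein-coding gene in HSC3, an established oral squamous cell carcinoma (OSCC) cell line. A region of the H3K27ac peak list of control cells was taken when it lay on chromosomes 1 to 22 or X, overlapped the 1 kb on either side of the transcription start site (TSS) of any GENCODE lncRNA transcript, and was more than 1 kb from every protein-coding TSS. In all, 1123 of 19705 control regions met this rule, or 5.70%. Of the others, 11787 were near a protein-coding TSS only, 3793 were near both kinds, and 3002 were near neither. Within the control list the choice used positions only, so strength above the calling limit, H3K4me3 and presence after DLEU1 knockdown were free to vary. All regions were called in control cells, so regions called only in siDLEU1 cells are left out and presence could only stay or be lost.

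HSC3 cells received a control siRNA or siDLEU1, an siRNA against the lncRNA DLEU1, and were collected 72 h later. Chromatin was precipitated with an antibody against H3K27ac or against H3K4me3, giving 1 library for each siRNA and each mark. Replicate libraries were absent, so differences are given without p-values. Both groups are 1 line and 1 siRNA against DLEU1, so an effect of that siRNA on other transcripts cannot be told apart from an effect of DLEU1.

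H3K27ac is an acetyl mark of active promoters and enhancers, while H3K4me3 is laid down mainly at active TSSs. A lncRNA promoter is built like that of a protein-coding gene, with a nucleosome-poor start flanked by marked nucleosomes, but it is usually weaker and more cell-type-specific. Several lncRNAs are hosts from which microRNAs (miRNAs) or small nucleolar RNAs (snoRNAs) are cut, and others, such as MALAT1, NEAT1 and NORAD, act as long RNAs themselves.

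The sequences below are shown because the results turn on these promoters. They are 201 bases of the GRCh37 plus strand centred on the point of highest H3K27ac in control cells, read 5′ to 3′. Capitals mark GGGCGG, the core of SP/KLF sites, and CCAAT, on either strand. NORAD, MIR31HG and MALAT1 were among the 12 strongest regions, LINC00511 belongs to the list of cancer-related lncRNAs, MIR205HG fell far in rank, and HIF1A-AS3 and LMO7DN had no H3K27ac region after knockdown.
NORAD, chr20:34638555-34638755: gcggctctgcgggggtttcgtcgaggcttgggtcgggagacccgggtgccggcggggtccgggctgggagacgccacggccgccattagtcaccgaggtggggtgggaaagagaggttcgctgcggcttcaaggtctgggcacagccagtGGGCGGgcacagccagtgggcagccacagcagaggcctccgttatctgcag
MIR31HG, chr9:21559466-21559666: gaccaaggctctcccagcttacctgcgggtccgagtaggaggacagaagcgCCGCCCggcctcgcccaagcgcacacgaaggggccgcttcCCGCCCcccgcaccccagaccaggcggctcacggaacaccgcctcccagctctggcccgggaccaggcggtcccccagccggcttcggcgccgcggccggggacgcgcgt
MALAT1, chr11:65268855-65269055: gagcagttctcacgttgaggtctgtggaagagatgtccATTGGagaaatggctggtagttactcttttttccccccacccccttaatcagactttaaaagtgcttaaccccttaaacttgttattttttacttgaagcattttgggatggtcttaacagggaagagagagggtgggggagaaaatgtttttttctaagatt
LINC00511, chr17:70588430-70588630: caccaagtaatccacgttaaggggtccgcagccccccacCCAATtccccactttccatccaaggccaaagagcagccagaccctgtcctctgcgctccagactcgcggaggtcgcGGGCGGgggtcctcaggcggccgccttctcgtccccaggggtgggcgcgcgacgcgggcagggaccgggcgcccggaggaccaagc
MIR205HG, chr1:209603113-209603313: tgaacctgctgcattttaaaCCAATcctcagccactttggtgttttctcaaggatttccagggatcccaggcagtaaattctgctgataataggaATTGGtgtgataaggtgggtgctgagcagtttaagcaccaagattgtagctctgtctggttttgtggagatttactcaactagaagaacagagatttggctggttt
HIF1A-AS3, chr14:62217977-62218177: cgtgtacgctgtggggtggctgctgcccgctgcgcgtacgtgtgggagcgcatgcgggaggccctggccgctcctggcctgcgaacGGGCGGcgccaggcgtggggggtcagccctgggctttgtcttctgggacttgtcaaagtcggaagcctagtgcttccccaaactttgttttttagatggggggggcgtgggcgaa
LMO7DN, chr13:76444805-76445005: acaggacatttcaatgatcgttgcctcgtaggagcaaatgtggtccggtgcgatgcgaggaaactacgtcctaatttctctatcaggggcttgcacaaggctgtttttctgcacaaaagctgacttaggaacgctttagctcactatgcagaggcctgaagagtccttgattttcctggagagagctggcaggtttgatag
The windows of NORAD and MIR31HG were rich in G and C, at 69.7% and 75.6%, with 17 and 25 CpG dinucleotides. Those of MALAT1 and MIR205HG held 41.3% and 42.8% G and C, with 1 and 0 CpG dinucleotides, although both regions were strong and wide. The MALAT1 window lay at an internal TSS and not at the start of the gene. A window of this length held GGGCGG in 33.6% of the 1123 regions and in 37.5% of all control regions, and CCAAT in 11.9% and 11.7%.

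Regions at lncRNA-only promoters were weaker than those at protein-coding promoters and stronger than those away from any TSS. Strength is given as the percentile rank of fold enrichment over local background within a list, where 100 is the strongest region, because fold enrichment itself is not comparable between lists. The median percentile was 37.1 at lncRNA-only promoters (95% interval of the median, 34.1 to 39.1), against 56.3 near protein-coding TSSs only, 61.4 near both kinds of TSS and 20.3 near neither. The intervals of these medians did not overlap. Of the 1123 regions, 396 (35.3%) were above the median of the list, and 51 (4.54%) were in the top decile. The median number of DNA fragments at the summit, recovered from the fold and p of each region, was 57, against 84 near protein-coding TSSs only and 36 near neither. Median width was 603 bp, against 826 and 380 bp. These intervals cover the counting of regions only.

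**Figure D1:**
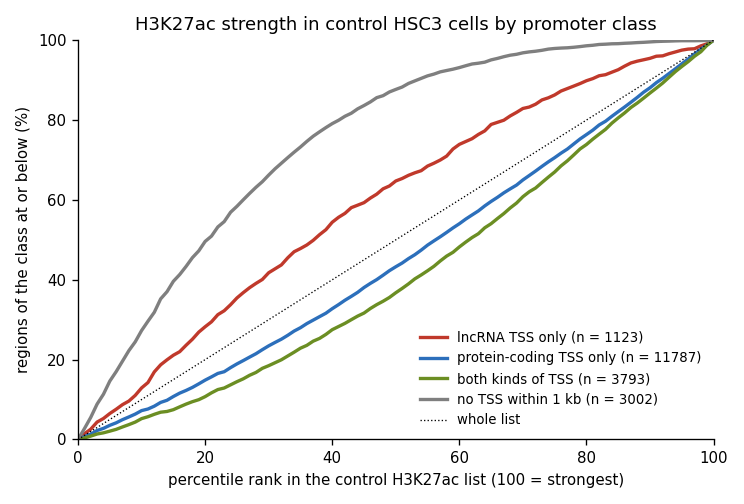
Percentile rank of each control H3K27ac region within its list (x axis, 100 is the strongest) against the share of its class at or below that rank in percent (y axis), with 1 line per class and a dotted line for the whole list. The line of the lncRNA-only regions (median 37.1) lies between that of regions near no TSS (20.3) and that of regions near protein-coding TSSs only (56.3).

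The 1123 regions were nearest to the TSSs of 962 lncRNA genes, of 18823 in the annotation. Of these regions, 580 were named for genes with only an Ensembl identifier, 208 for LINC genes, 93 for antisense (-AS) genes, 41 for miRNA hosts and 20 for snoRNA hosts. Another 166 were named for genes with other symbols, and the rest had -DT, -OT or -IT symbols. In 231 regions the window held TSSs of 2 or more lncRNA genes, and 300 regions shared their nearest lncRNA gene with another region. Up to 5 regions belonged to 1 gene, so the regions are not independent of each other. The summit lay within 250 bp of the nearest lncRNA TSS in 625 regions, and a lncRNA TSS lay inside 673. Regions with the TSS inside had a median percentile of 49.4, against 21.95 for the other 450. The summit lay outside protein-coding genes in 979 cases, inside one on the strand opposite to the lncRNA in 105 and inside one on the same strand in 39.

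Strength differed among the kinds of lncRNA. snoRNA hosts had the highest median percentile, 66.8 (48.5 to 81.3, n = 20), and 14 of 20 were above the list's median. Genes with other symbols had a median of 49.5 (41.8 to 55.8), miRNA hosts 39.1 (32.1 to 60.5), LINC genes 38.3 (32.7 to 41.9), genes without a symbol 33.5 (30.0 to 37.5) and antisense genes 31.2 (22.5 to 37.8). The intervals of miRNA hosts, LINC genes, genes without a symbol and antisense genes overlapped. The 177 regions between 1 and 5 kb from a protein-coding TSS were weaker, at 24.8 (21.1 to 32.3), than the 456 at 20 to 100 kb, at 40.5 (37.8 to 44.1). Just inside the limit of 1 kb were HSD17B1-AS1 (980 bp from a protein-coding TSS, percentile 70.2) and ERBIN-DT (988 bp, 53.5), and just outside it were THUMPD3-AS1 (1020 bp, 18.4) and NFIB-AS1 (1044 bp, 42.7).

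Many of the strongest regions lay at sequences with a near-identical copy elsewhere in GRCh37. At 262 of the 1123 regions (23.3%), at least 95% of the bases within 150 bp of the summit matched another place, against 7.44% of all control regions, 2.52% near protein-coding TSSs only and 27.9% near neither. Within deciles of strength, the difference in this share was 20.9 points (95% interval, 18.5 to 23.4) to regions near protein-coding TSSs only and -8.31 points (-11.4 to -5.26) to regions near neither. Whether reads were unique to 1 of these places was not tested, and how the authors placed them is not given in the sources used here. Of the 12 strongest regions 8 had a copy, and of the 100 strongest 43. The 861 regions without a copy had a median percentile of 34.4 (32.5 to 37.5), and the 262 with one 44.4 (38.7 to 50.03). Their part in these ranks was not tested.

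Among the 12 strongest regions, those without a copy were at MIR23AHG, MIR31HG, NORAD and MALAT1. MIR23AHG, the host of miR-23a, had a region of 3561 bp at chr19:13950115-13953675, with its summit 493 bp into exon 1 and a control percentile of 99.8. MIR31HG, the host of miR-31, had one of 3071 bp at chr9:21557393-21560463 with a percentile of 99.5. NORAD, a cytoplasmic lncRNA that binds Pumilio proteins, had one of 2303 bp at chr20:34636660-34638962, with a percentile of 98.99. MALAT1, an abundant RNA of nuclear speckles, had the widest region of all control regions, 7012 bp at chr11:65266474-65273485, with a percentile of 98.6. Its summit lay at an internal TSS of MALAT1, chr11:65269013, and the region did not reach the start of the gene. All 12 regions had H3K4me3 in both lists. The 8 with a copy were at WASH2P, PI4KAP1, GUSBP1, LINC00680, MUC20-OT1, MIR1302-2HG, SDHAP4 and ENSG00000284116, several of which are named as pseudogenes.

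Most lncRNA-only promoters carried H3K4me3 as well. In control cells 971 of 1123 regions (86.5%, 84.3 to 88.3) were overlapped by a H3K4me3 region, against 88.6% of all control H3K27ac regions. Near protein-coding TSSs only the share was 89.6%, and near neither it was 81.0%. Compared within deciles of H3K27ac strength, lncRNA-only promoters had H3K4me3 more often than regions near protein-coding TSSs only, by 3.39 points (1.45 to 5.34), and the difference to regions near neither was -1.71 points (-4.18 to 0.761), an interval that includes 0. The widest gap to protein-coding promoters was in decile 2, with 78.6% against 60.8%, a difference of 17.8 points (10.43 to 24.15). In every other decile the interval included 0, and in deciles 3 and 8 the difference was -0.787 and -0.224 points. The matched mean thus rests largely on decile 2, and it was not among the values checked under other settings. The median percentile of the strongest H3K4me3 region at a lncRNA-only promoter was 78.2 within its list, the same as near protein-coding TSSs only, at 78.2. The 152 regions without H3K4me3 were weak and narrow in H3K27ac, with a median percentile of 14.7 and a width of 350 bp, against 41.6 and 671 bp for the 971 with it.

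After DLEU1 knockdown, 944 of the 1123 regions (84.1%) were overlapped by H3K4me3, where 86.6% of all control regions were. Of the 971 with H3K4me3 in control cells, 906 (93.3%, 91.6 to 94.7) still had it in siDLEU1 cells and 65 (6.69%) did not, where 5.24% of all such control regions did not. Of the 152 without it, 38 (25%) had a H3K4me3 region in siDLEU1 cells, where 23.5% of all such control regions did. The H3K4me3 percentile of the 971 changed by a median of -2.26 points (-3.21 to -1.06), with no region counted as 0, against 0.0907 (-0.107 to 0.248) near protein-coding TSSs only and -6.11 (-7.08 to -5.19) near neither. The intervals did not overlap.

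H3K27ac was found again in siDLEU1 cells at 787 of the 1123 regions (70.1%, 67.3 to 72.7), counting an overlap of at least 1 bp as retention. The other 336 (29.9%) had no overlapping region, against 22.2% of all control regions. Retention was 84.1% near protein-coding TSSs only, 88.1% near both kinds of TSS and 43.0% near neither. The siDLEU1 H3K27ac library was the deeper one, with 29.4 M recovered reads against 21.5 M, and its list held fewer regions, 17672 against 19705. By the recovered scale, reads were scaled down for calling to a background estimated at 6.735 M reads for siDLEU1 and 7.176 M for control. The part of depth in the shorter list was not tested. Of the 336 regions, 247 had no siDLEU1 H3K27ac region within 1 kb and 201 had none within 10 kb, while 89 had one within 1 kb. A region that is not retained is one that fell below the limit of the peak calling, and loss of all acetylation cannot be read from the lists.

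Retention followed strength. In decile 1 of control strength, the weakest, 15.5% of the lncRNA-only regions were retained, in decile 2 37.6%, in decile 3 54.9%, in decile 4 81.1% and in decile 5 92.2%. The strongest region that was not retained had a percentile of 58.1, and 321 regions lay above it. From decile 7 to decile 10 all lncRNA-only regions were retained, as were 99.5% to 100% of regions near protein-coding TSSs only. Compared within deciles, the difference in retention to regions near protein-coding TSSs only was -2.31 points (-4.38 to -0.239), while the unmatched difference was -14.0 points. The matched interval came to include 0 under several other settings, given in the closing section. By decile, the shares were 15.5% against 26.5% in decile 1, where the interval of the difference (-16.9 to -3.54) excluded 0, 37.6% against 34.3% in decile 2 and 54.9% against 61.0% in decile 3, where the intervals included 0. Against regions near both kinds of TSS the matched difference was -3.12 points (-5.31 to -0.935). Against regions near neither, lncRNA-only promoters were retained more often at equal strength, by 8.56 points (5.88 to 11.2), and the intervals of the difference excluded 0 in deciles 2, 3 and 4.

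**Figure D2:**
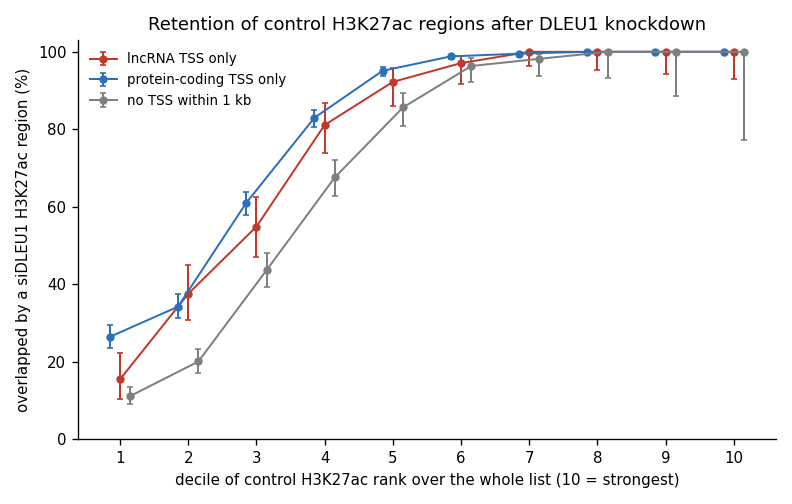
Share of control H3K27ac regions overlapped by a siDLEU1 H3K27ac region in percent (y axis) by decile of control rank over the whole list (x axis, 10 is the strongest), with 95% Wilson bars, for lncRNA-only regions, regions near protein-coding TSSs only and regions near no TSS. The lncRNA-only points lie below the protein-coding ones in decile 1, with 15.5% against 26.5%, and in decile 3, with 54.9% against 61.0% and overlapping bars, and above the regions near no TSS in decile 2, with 37.6% against 20.1%.

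Retention also differed with H3K4me3 and with the place of the TSS, both of which moved with strength. Of the 971 regions with control H3K4me3, 735 (75.7%, 72.9 to 78.3) were retained, and of the 152 without it, 52 (34.2%, 27.1 to 42.1), where 82.6% and 40.6% of all such control regions were. Where a lncRNA TSS lay inside the region, 83.8% were retained, and where it lay outside, 49.6%. Between 1 and 5 kb from a protein-coding TSS, 96 of 177 regions (54.2%, 46.9 to 61.4) were retained, against 72.7% at 5 to 20 kb, 74.6% at 20 to 100 kb and 69.6% beyond. Of the 336 regions that were not retained, 194 kept H3K4me3 in both lists, 42 had it in control cells only and 84 had it in neither list. Control H3K4me3 was thus present at 236 of these 336, a similar share to the 3035 of all 4371 control regions that were not retained.

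Retained regions were narrower and ranked lower after DLEU1 knockdown. Choosing regions from the control list can by itself favour lower values in the other list, so values over all retained regions are given beside them. The summed width of overlapping siDLEU1 regions was a median of 0.761 of the control width (0.745 to 0.778), against 0.807 near protein-coding TSSs only and 0.689 near neither, and 705 of 787 regions (89.6%) were narrower, where 90.8% of all retained regions were. Percentile fell in 515 of the 787 (65.4%), where it did in 63.0% of all retained regions, with a median change of -7.62 points (-9.53 to -6.18), against -5.38 (-5.72 to -5.03) over all retained regions and -4.52 (-4.95 to -4.07) near protein-coding TSSs only. With both lists cut to equal numbers of regions, the median change was -2.31 points (-3.87 to -1.23), against -1.53 (-1.79 to -1.27) over all retained regions. Ranked by recovered fragments in place of fold, the median change was -7.41 points (-8.58 to -6.00), against -5.84 over all retained regions. Fragments at the summit went from a median of 77 to 61. Fragment numbers, here and at the named regions below, are not scaled for depth. The siDLEU1 library was the deeper one, at 29.4 M recovered reads against 21.5 M, so the paired numbers understate any fall. With regions not retained set to 0, percentile fell by at least 20 points at 309 regions (27.5%, 24.98 to 30.2), where 23.9% of all control regions did, and rose by as much at 54 (4.81%), where 5.96% of all did. Of the 203 retained regions that fell this far by fold, 86 also did by fragments, and of the 54 that rose, 6 did.

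**Figure D3:**
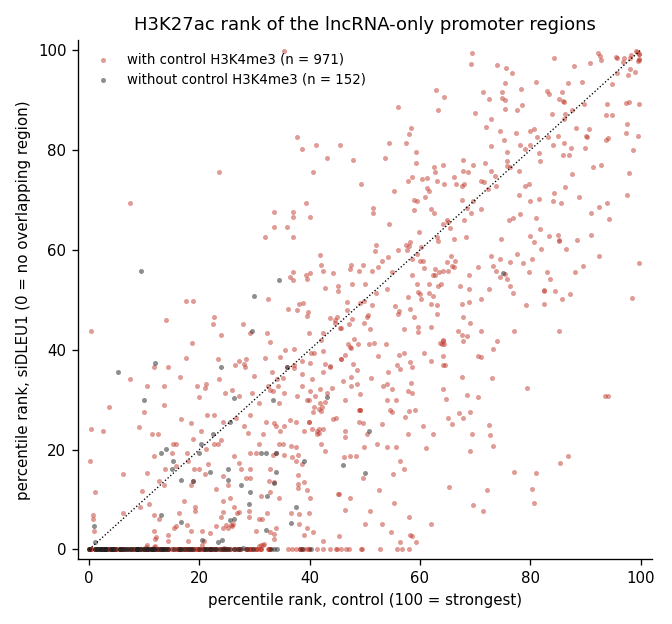
H3K27ac percentile rank of each of the 1123 lncRNA-only promoter regions in control cells (x axis) and in siDLEU1 cells (y axis, 0 where no region overlapped), coloured by control H3K4me3. Of the 336 points on the zero line none lies above a control percentile of 58.1, and the 152 regions without H3K4me3 lie mostly at the left, with a median of 14.7.

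The strongest region without a siDLEU1 counterpart was at ENSG00000291174 on chromosome 11, with a control percentile of 58.1 and 99 fragments. At HIF1A-AS3, antisense to the hypoxia factor gene HIF1A, a region of 347 bp at chr14:62217917-62218263 had a control percentile of 56.7 and 84 fragments, and its H3K4me3 was called in both lists at percentiles of 86.0 and 83.4. At LMO7DN, a region of 652 bp at chr13:76444612-76445263 had a control percentile of 49.4 and 68 fragments, and H3K4me3, at 41.4 in control cells, was not called in siDLEU1 cells. DRAIC, at chr15:69754517-69755145, had a control percentile of 45.8, and its H3K4me3 percentiles were 66.8 and 78.4. All 10 of the strongest such regions had H3K4me3 in control cells and 7 of them in siDLEU1 cells. The others were at ENSG00000288993, ENSG00000287663, LINC01220, LINC01783, ENSG00000287050 and ENSG00000286543. At LINC01220 and ENSG00000286543 a siDLEU1 H3K27ac region lay 185 and 229 bp away, and the region at LINC01783 and that at ENSG00000286543 had a near-identical copy elsewhere.

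The 6 regions named next fell furthest in fold rank while retained. MIR205HG, the host of miR-205, a miRNA of squamous epithelia, had a control percentile of 85.5 over 4003 bp at chr1:209602164-209606166, and 17.3 over 3765 bp in siDLEU1 cells. Its summit held 154 and 99 fragments, and by fragments its percentile moved from 92.6 to 79.1. Its H3K4me3 stayed near the top of both lists, at 99.98 and 99.5. At ENSG00000248514 the fall was as large by fragments, from 80.6 to 12.7, and at ENSG00000292256 it was from 71.0 to 21.6. At LINC02256 the fold percentile went from 80.8 to 9.32 and the fragment percentile from 70.4 to 44.3. At ENSG00000291073 and ENSG00000291081 the fragment percentile changed by -6.90 and 5.81 points, so the fold rank and the fragment rank moved apart. WASH2P, among the strongest, behaved in the same way, with a fold percentile of 99.8 and 57.4 and a fragment percentile of 99.8 and 99.7. Of the 6 regions, 3 had a near-identical copy elsewhere, at LINC02256, ENSG00000291073 and ENSG00000291081, as did WASH2P.

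The 6 largest rises in fold rank were mixed. At DSP-AS1, antisense to the desmosome gene DSP, control and siDLEU1 percentiles were 35.4 and 99.9, but the siDLEU1 region, 2800 bp wide, also overlapped another control region. The same held for a weak region of PVT1, the lncRNA beside MYC, with percentiles of 7.35 and 69.3. ENSG00000289971 went from 23.6 to 75.5, and from 45.1 to 62.1 by fragments, and its H3K4me3 percentile from 5.89 to 81.1. ENSG00000276170 went from 0.376 to 43.7, and from 13.5 to 34.6 by fragments. At ENSG00000289603 and NPEPPSP1 the fragment percentile changed by 0.194 and -9.47 points, and the region at NPEPPSP1 had a near-identical copy elsewhere.

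**Figure D4:**
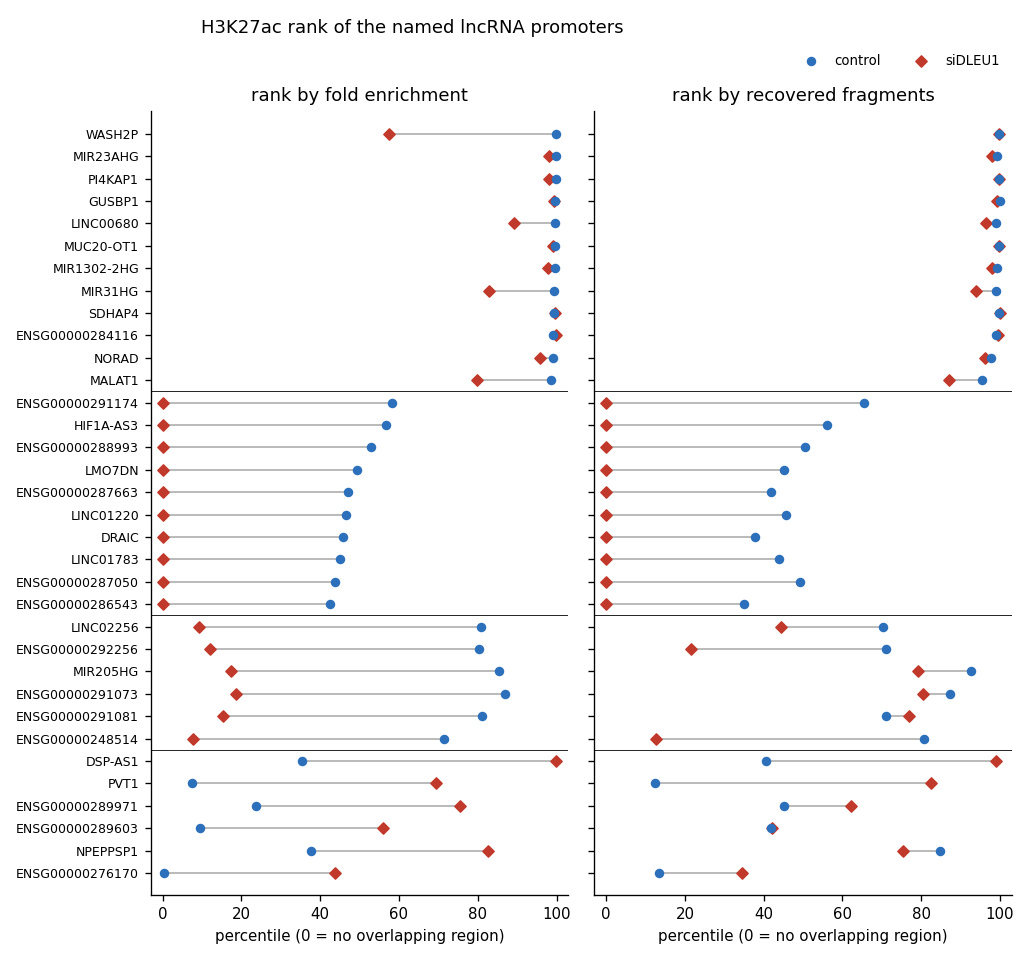
H3K27ac percentile rank in control (circles) and siDLEU1 (diamonds) lists for the 12 strongest regions, the 10 strongest not retained, the 6 largest falls and the 6 largest rises (top to bottom), ranked by fold enrichment (left) and by recovered fragments (right). MIR205HG moves from 85.5 to 17.3 by fold and from 92.6 to 79.1 by fragments.

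Of 35 lncRNAs listed for their part in cancer, 14 had regions of this class, 23 regions in all, of which 18 were retained, where 77.8% of all control regions were. The list was chosen with earlier results of these data known. All 23 had H3K4me3 in control cells, where 88.6% of all control regions did, and 21 in siDLEU1 cells. Percentile was lower in siDLEU1 cells at 7 of the 18 and higher at 11, with a median of 4.95 points, against -5.38 over all retained regions. By fragments 9 of the 18 were lower, and the median was -0.568 points, where the value over all retained regions is given above. Both PVT1 regions overlapped the same siDLEU1 region, so its rank was counted for each of them. Of the other 21 lncRNAs, 8 had control regions that were also near a protein-coding TSS, 10 had no control region, and 3 were not lncRNA genes of the annotation.

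Within this list, NORAD had percentiles of 98.99 in control and 95.7 in siDLEU1 cells, with 181 and 136 fragments. MALAT1 had 98.6 and 79.9, with 165 and 112 fragments, and its region was split into 3 in siDLEU1 cells. NEAT1, the scaffold of paraspeckles, had 93.8 and 89.3. These regions, the strongest of each gene, changed by -3.31, -18.7 and -4.58 points. The weaker NEAT1 region went from 17.6 to 38.4, and the weaker MALAT1 region, at 25.6, was not retained. This weaker MALAT1 region, chr11:65265278-65265664, lay near the start of the gene, while the stronger one had its summit at an internal TSS. LINC00511, at chr17:70586420-70588942, had 86.8 and 93.5 with 158 and 128 fragments. The main region of AFAP1-AS1 had 82.5 and 49.2, and by fragments its change was -11.2 points. LINC-PINT, a p53-induced lncRNA, had 4 control regions, of which 3 were lncRNA-only. The strongest of these had 72.0 and 84.7, and the weaker lncRNA-only regions, at 29.3 and 13.0, were not retained. PURPL, also p53-induced, had 12.6 and no region in siDLEU1 cells.

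At DLEU1 itself, the siRNA acts on the transcript, so the marks do not measure the knockdown. Of its 3 control regions, 2 were lncRNA-only. The stronger of them lay at an internal TSS, with H3K27ac percentiles of 86.3 and 87.2 and 136 and 107 fragments. The sequence around its summit had a near-identical copy elsewhere in GRCh37, and whether its reads were unique to this place was not tested. At the first TSS, chr13:50656320-50657318, the percentiles were 47.4 and 56.2, with 85 and 67 fragments. The 3 lncRNA-only regions of the neighbouring DLEU2, of 6 control regions, had control percentiles of 75.9, 72.9 and 62.7 and siDLEU1 percentiles of 79.5, 86.3 and 56.1. These lncRNA-only regions were retained, with H3K4me3 in both lists.

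Hosts of snoRNAs had the highest share of retained regions among the larger kinds of lncRNA. These genes carry snoRNAs in their introns and belong to the ribosome biogenesis programme of growing cells. Of 20 regions at 16 genes, 19 were retained (95%, 76.4 to 99.1), where 77.8% of all control regions were. All 20 had H3K4me3 in both lists, where 88.6% of all control regions had it in control and 86.6% in siDLEU1 cells. None had a near-identical copy. Percentile was lower in siDLEU1 cells at 11 of the 19 and higher at 8, where it was lower at 63.0% of all retained regions. The median change was -2.21 points. SNHG7 had 97.7 and 95.1, with 165 and 124 fragments, and SNHG29 had 92.8 and 98.1. SNHG32 had 93.6 and 30.8 by fold, while its fragment percentile changed by -1.24 points. SNHG8 had 38.6 and 80.1 at its stronger region, with a fragment change of 0.661. The 1 region not retained was the weaker region of SNHG25, with a control percentile of 9.04. Retention was 67.6% (63.7 to 71.3) at genes without a symbol, 72.1% (65.7 to 77.8) at LINC genes and 59.1% (49.0 to 68.6) at antisense genes, and the snoRNA hosts were also the stronger regions, as given above.

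**Figure D5:**
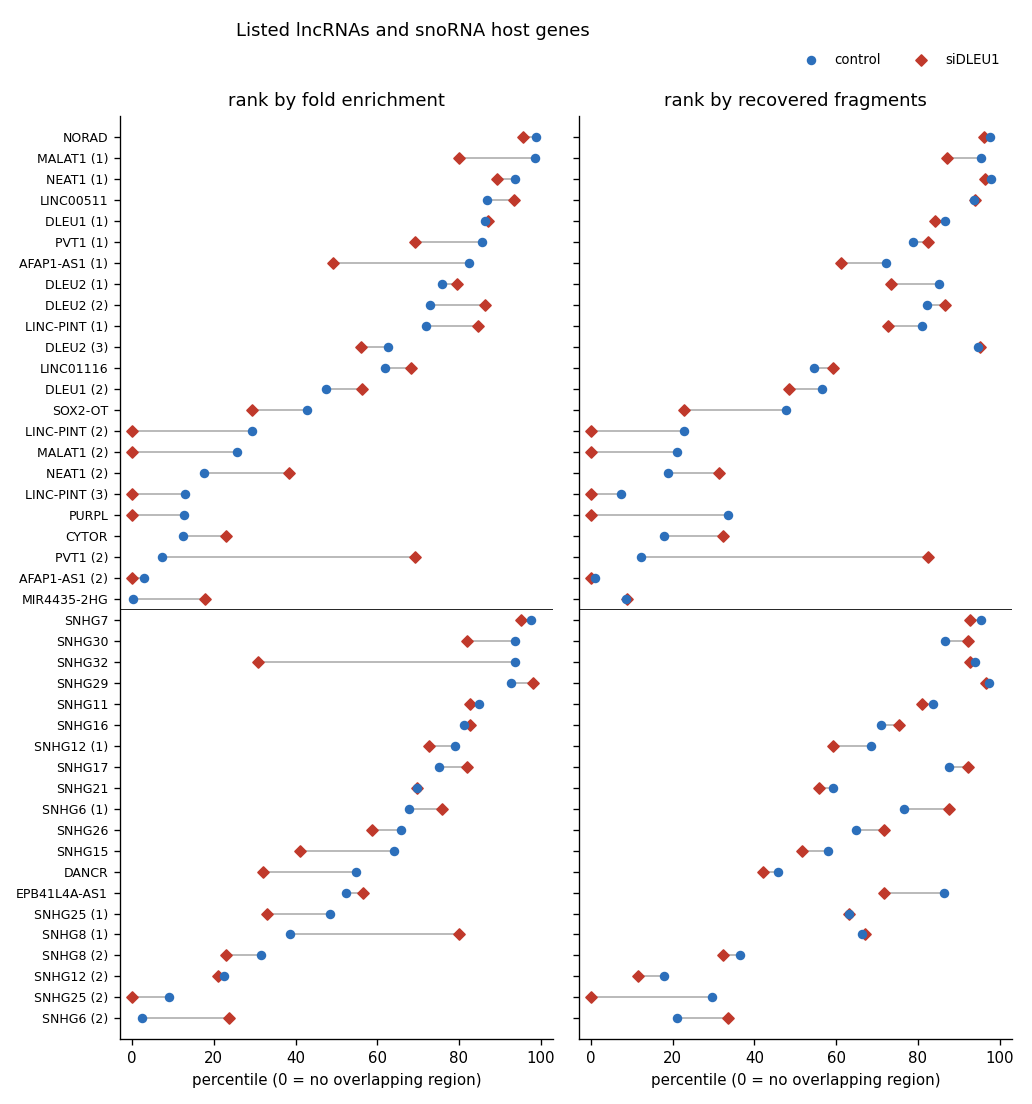
H3K27ac percentile rank in control (circles) and siDLEU1 (diamonds) lists for the 23 regions of cancer-related lncRNAs (above the line) and the 20 regions of snoRNA hosts (below it), by fold enrichment (left) and by recovered fragments (right). In each list the regions are in order of control strength, and numbers mark several regions of 1 gene. Of the regions shown 18 of 23 and 19 of 20 were retained.

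Regions at miRNA hosts were retained in 33 of 41 cases (80.5%, 66.0 to 89.8), where 77.8% of all control regions were, at 27 genes, and 37 had H3K4me3 in control cells. Percentile was lower at 22 of the 33 and higher at 11, with a median change of -2.66 points, and 11 of 41 fell by at least 20 points, where 23.9% of all control regions did. By fragments 25 of the 33 were lower, with a median change of -4.54 points. MIR31HG had percentiles of 99.5 and 82.8, with 193 and 128 fragments. MIR200CHG, the host of the epithelial miR-200c, had 85.9 and 79.0. MIRLET7BHG had 83.0 and 55.6 at its strongest region, and its fragment percentile changed by -18.1 points. MIR17HG, the host of the miR-17 cluster, had 72.7 and 22.9 at its strongest region, where the fragment change was -1.73 points. MIR155HG had 39.1 and 13.5. MIR4458HG had 64.4 and 90.6 by fold, with a fragment change of 2.702 points. The 8 regions not retained were at MIR34AHG, MIR17HG, MIR205HG, MIR3142HG, MIR100HG and MIR924HG, and their control percentiles were 26.3 or lower.

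The DNA under the lncRNA-only regions was close to that under protein-coding promoters in kind, with fewer CpG-rich starts. In the bases within 150 bp of the summit the median G and C content was 62.8% (61.8 to 63.5), against 65.8% near protein-coding TSSs only and 58.5% near neither. A window counted as CpG-island-like when it held at least 50% G and C and at least 0.6 of the CpG dinucleotides its composition predicts. This held for 760 of 1123 windows (67.7%), against 76.4% near protein-coding TSSs only and 51.3% near neither. Within deciles of strength the difference was -4.60 points (-7.38 to -1.81) to the former and 8.94 points (5.54 to 12.3) to the latter. Among retained regions 73.3% were CpG-island-like, and among those not retained 54.5%, and these groups also differed in strength.

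Of 8 motifs searched on both strands, 2 had matched intervals that excluded 0 both to regions near protein-coding TSSs only and to those near neither. Regions near both kinds of TSS were not compared at equal strength, and the intervals are not corrected for the number of comparisons. The motif GGGCGG occurred in 46.8% of them, against 54.7% near protein-coding TSSs only, 31.6% near neither and 51.1% of all regions, with matched differences of -6.89 points (-9.97 to -3.82) and 12.9 points (9.37 to 16.4). TGACTCA, the AP-1 site, occurred in 3.74% (42 windows), against 1.99%, 5.86% and 2.7%. Its matched differences were 1.44 points (0.306 to 2.56) and -1.51 points (-3.01 to -0.0189), the latter with an interval that ends close to 0. Near both kinds of TSS, GGGCGG occurred in 56.7% and TGACTCA in 2.08%. The ISRE motif occurred in 3.12%, against 2.55%, 8.83% and 3.49%, and the ETS motif CCGGAAG in 6.14%, against 6.63%, 3.70% and 6.04%. For both, the matched interval included 0 to regions near protein-coding TSSs only but not to those near neither, at -4.70 points (-6.13 to -3.26) and 2.19 points (0.507 to 3.87). For CCAAT, the TATA box TATAAA, the E-box CACGTG and the NRF1 motif, all matched intervals included 0, and the shares were 18.7%, 5.25%, 4.72% and 0.267%, against 17.7%, 4.08%, 4.81% and 0.152% of all regions. No motif contains another. A match is a description of the letters only.

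The cells had the marks of their label. All 14 markers of squamous cells, such as KRT5, TP63 and PERP, had a control H3K27ac region at a TSS, with percentiles from 1.91 to 92.9, and none of the 8 markers of other cell types with an annotated TSS did. DSG3 had no region in siDLEU1 cells.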

How the data were processed

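HSC3 cells were examined by ChIP-seq with 1 library for each of 2 siRNAs and 2 marks. Per the labels and methods of the study, reads of the Ion Proton were aligned by the authors to hg19 (bowtie2). MACS2 was then run on each of 4 libraries to give the deposited peak lists. The deposited fold (a ratio over local background), −log10 p and −log10 q are those of MACS2. Its settings and control library are not given in the sources used here. Of the 2 input libraries nothing was analysed here. The score column of the deposited lists was not used.

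TSSs were those of all transcripts of 18823 lncRNA and 20098 protein-coding genes of GENCODE v44lift37, and sequences were read from GRCh37. A member was named for the lncRNA with the TSS nearest to its summit. Those named in the text are the 12 strongest, the 10 strongest not retained, the 6 largest falls and 6 largest rises, and the listed lncRNAs and hosts. The regions, lists and tests were chosen with earlier results of these data known. The 7 sequences were chosen after the values were seen, and 1 item is not reported here.

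Shares have 95% Wilson intervals, medians exact binomial intervals, and matched differences are Mantel-Haenszel means over 10 deciles of control rank, and all cover the counting of regions only. Fragments at each summit were solved from fold and p, which matched the p of 100% of regions. Depths of 21.5, 28.5, 29.4 and 22.3 M reads (control H3K27ac and H3K4me3, then siDLEU1) are estimates that rest on an assumed genome of 2.7 Gb. They also take the shortest region as the fragment length and the most common local background as that of the genome. Copies were sought with minimap2 2.31. The functions were tested on simulated data. Python 3.11.15, numpy 2.4.6, pandas 2.3.3, scipy 1.17.1, pysam 0.24.0 and matplotlib 3.10.9 were used.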

Additional observations from a re-analysis of the deposited data

How the results depend on the processing

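No paired analysis was possible because there was 1 library for each siRNA and mark and the results come from no test. Of 135 values under 15 alternatives, 101 counted as unmoved, lying within the interval of the main value, and 34 moved further. A change of direction was possible only for the percentile change and the matched differences in retention, and none of these changed direction. The number of regions has no interval and was judged by a fixed ratio instead. Where only the ranking changed, the number of regions, retention, the H3K4me3 shares and the width ratio could not move. With −log10 q of at least 10, 738 regions were left, retention was 56.4%, H3K4me3 76.0% in siDLEU1 and 77.8% in control cells, the percentile change -11.0 points, the width ratio 0.813, and the matched difference -6.32 points to protein-coding-only regions and 12.2 points to regions at no TSS. With regions within 1 kb stitched, retention was 75.3% and the median control percentile 31.3. Where at least 50% of both regions had to be shared, retention was 55.6%, H3K4me3 59.8% and 56.2% in control and siDLEU1 cells, the percentile change -5.40 points and the width ratio 0.800. With lncRNA genes that have a curated RefSeq transcript, 552 regions were left, retention was 73.0%, the percentile 40.0 and the width ratio 0.783. A lncRNA window of 500 bp gave a percentile of 39.4, and one of 3 kb a retention of 66.0% and a percentile of 33.5. More than 5 kb from protein-coding TSSs, retention was 73.0% and H3K4me3 in siDLEU1 cells 86.2%. With equal numbers of regions, retention was 78.9%, H3K4me3 89.9% and 87.3%, and the percentile change -2.31 points. With a lncRNA TSS inside the region, added after the data were seen, 673 regions were left, retention was 83.8%, the percentile 49.4, H3K4me3 91.1% and 89.3%, and the difference to regions at no TSS 11.9 points. The cause of these moves was not tested.

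The matched difference to protein-coding-only regions was below 0 under every alternative, from -6.32 to -0.601 points, but its interval included 0 with curated lncRNA genes (-5.34 to 0.119), a window of 500 bp (-3.90 to 0.312), more than 5 kb from protein-coding TSSs (-2.80 to 1.60), equal numbers of regions (-3.58 to 0.816) and a TSS inside the region (-3.49 to 0.894). The interval of the difference to regions at no TSS excluded 0 under all 15 alternatives. Without the regions that have a near-identical copy, retention was 68.5%. Depth differed between the lists, percentiles are relative to lists of unequal length, and the lists hold called regions only.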
